A study of Mus musculus with 9 samples.

Results

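Retinoic acid, the hormone-like derivative of vitamin A, is made and handled by a small set of enzymes and binding proteins, and 8 of these genes were followed here across 3 groups of sorted mouse stromal cells. The 8 genes were Rdh10, Aldh1a1, Aldh1a2, Aldh1a3, Rbp4, Crabp1, Crabp2 and Cyp26b1, taken by symbol from the 27370 genes of the deposited count table. All 8 were found, each on 1 row, and 7 of them had enough counts to be tested, Crabp2 being the exception.

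Retinol, the transport form of vitamin A, circulates in blood on RBP4 and is oxidised inside cells in a pair of steps. The first step, retinol to retinal, is reversible and is carried out by retinol dehydrogenases such as RDH10, while the second, retinal to retinoic acid, is irreversible and is carried out by the retinal dehydrogenases ALDH1A1, ALDH1A2 and ALDH1A3. CRABP1 and CRABP2 bind retinoic acid in the cytoplasm, CYP26 enzymes such as CYP26B1 break it down, and what remains acts on nuclear receptors of the RAR and RXR families. In lymphoid organs retinoic acid is known for its part in gut homing of lymphocytes, and stromal cells of lymph nodes are among its known sources.

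All mice carried Wt1CreERT2, RosatdTomato and CD64DTR and were 4 months old, and polyA RNA was sequenced from 3 libraries per group, each a pool of 2 mice. The first group held red pulp fibroblasts (RPF), the reticular fibroblasts of the spleen's red pulp, of mice given diphtheria toxin (depleted RPF). The toxin kills cells that express the diphtheria toxin receptor from the CD64 construct, CD64 being an Fc receptor of macrophages. The second held RPF of untreated mice (steady-state RPF), and the third fibroblastic reticular cells (FRC), the stromal network of lymph nodes, of untreated mice. RPF were sorted from CD45-depleted spleen cells as tdTomato+ and FRC from lymph node cells as tdTomato-, so RPF here are cells marked through a Wt1-driven Cre. No group of toxin-treated mice without the receptor was analysed here, so effects of the toxin and of cell loss cannot be told apart.

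The libraries held between 25414645 and 43879806 counts. Levels are TMM-normalised CPM, that is, counts scaled to a common library size with edgeR, given either per library in the order of the replicate numbers or as the group's mean ± SD (n = 3). The summed level of the RPF markers Wt1, Tlx1, Tcf21 and Nkx2-5 ran from 450 to 592 CPM in depleted RPF, from 1150 to 1357 CPM in steady-state RPF and from 1.77 to 6.16 CPM in FRC. The summed level of the FRC markers Ccl19, Ccl21a, Bst1 and Inmt ran from 13.2 to 14.9 CPM in depleted RPF, from 14.4 to 28.5 CPM in steady-state RPF and from 4060 to 4341 CPM in FRC. These marker sets followed the labels. Of 8 general fibroblast and reticular markers, 7 passed the test as lower and 1 as higher than FRC in either RPF group. Over all tested genes, 14.4% were lower than FRC in steady-state RPF and 18.8% in depleted RPF. Dcn averaged 12.3 CPM in depleted RPF, 30.6 CPM in steady-state RPF and 26902 CPM in FRC. Pdgfrb, the higher one, averaged 2331, 942 and 515 CPM in the same order. Pdpn, which encodes gp38, one of the stained surface proteins, lay at 0.197 CPM or less in the 6 RPF libraries and between 71.1 and 78.4 CPM in FRC. Summed counts of Y-linked genes were low in steady-state RPF replicate 1 (24 counts) and FRC replicate 1 (69 counts), against 2315 to 6124 in the other 7 libraries. Calls on the members that were lost without both libraries are given with the result. In bulk RNA of sorted cells, fewer cells that express a gene and less RNA per cell cannot be told apart.

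**Figure D1:**
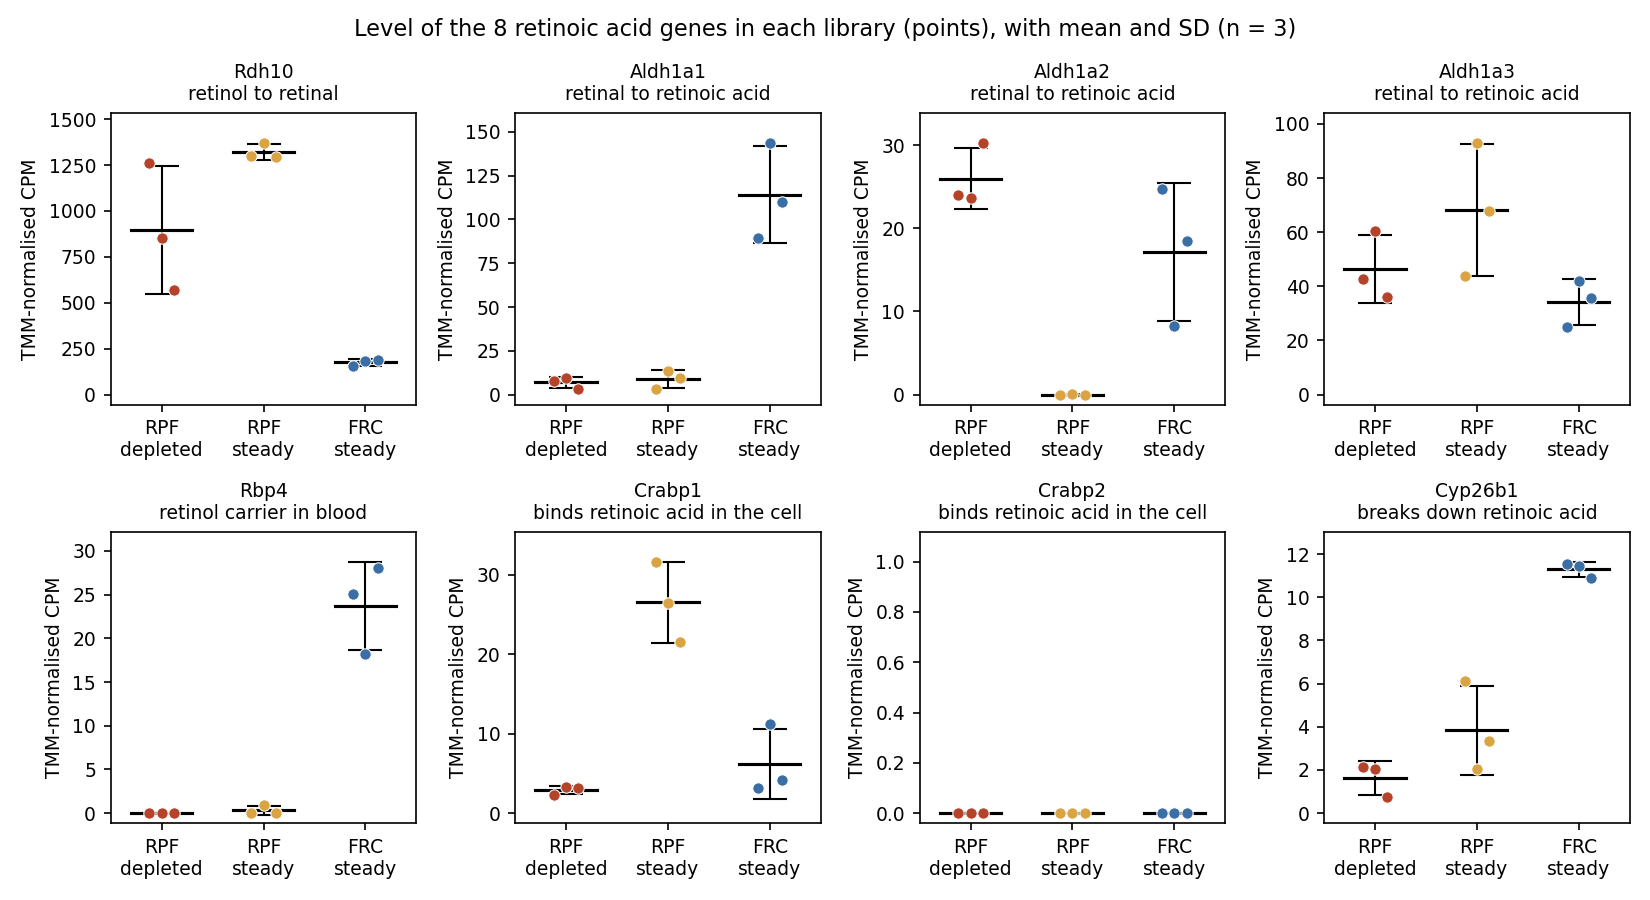
Level of each of the 8 genes in every library, in TMM-normalised CPM on linear axes that differ between panels; points are libraries, the thick line is the mean and the bars the SD (n = 3). Aldh1a2 lay between 23.7 and 30.2 CPM in depleted RPF, at 0.0197 CPM or less in steady-state RPF and between 8.26 and 24.7 CPM in FRC, while Crabp1 was highest in steady-state RPF.

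Rdh10, whose product makes retinal from retinol, was the most abundant of the 8 mRNAs per kilobase in both RPF groups. Rdh10 (ENSMUSG00000025921, mm10 chromosome 1, 16105774 to 16133734, + strand) stood at 1262, 855 and 569 CPM in depleted RPF, at 1301, 1369 and 1295 CPM in steady-state RPF and at 155, 181 and 190 CPM in FRC. Every RPF library lay above every FRC library, and the depleted libraries spread far more widely than the steady-state ones. The means were 896 ± 348 CPM in depleted RPF, 1322 ± 41.4 CPM in steady-state RPF and 175 ± 18.2 CPM in FRC. Rdh10 was 7.55-fold higher in steady-state RPF than in FRC (log2 fold change 2.92, SE 0.26, edgeR adjusted p = 5.36e-05). It was 5.11-fold higher in depleted RPF than in FRC (log2 fold change 2.35, SE 0.25, edgeR adjusted p = 0.000133). Between depleted and steady-state RPF the libraries did not overlap, but the difference did not pass the test (log2 fold change -0.56, SE 0.24, edgeR adjusted p = 0.142). That comparison turned on depleted replicate 1, the highest of its group: without it the log2 fold change was -0.89 with an edgeR adjusted p of 0.0142, and with all libraries DESeq2 gave an adjusted p of 0.0499 and limma-voom one of 0.0415.

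The retinal dehydrogenases, which make retinoic acid itself, differed in which enzyme led in each group. Aldh1a1 was high in FRC and low in both RPF groups, Aldh1a2 was present in FRC and in depleted RPF but nearly absent from steady-state RPF, and Aldh1a3 was found in all 3 groups, between 25.0 and 92.9 CPM. Between depleted and steady-state RPF only Aldh1a2 of the 3 passed the test.

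Aldh1a2 (ENSMUSG00000013584, mm10 chromosome 9, 71215789 to 71296243, + strand) had 3069 counts over the 3 depleted RPF libraries, 1 count over the 3 steady-state RPF libraries and 1673 counts over the 3 FRC libraries. In CPM it stood at 24.0, 23.7 and 30.2 in depleted RPF, at 0, 0.0197 and 0 in steady-state RPF and at 24.7, 8.26 and 18.4 in FRC. The depleted and the FRC libraries overlapped, and the steady-state RPF libraries lay below all of them. The ratio of depleted over steady-state RPF was 3363, with a 95% counting interval from 603 to 132865 that covers counting error only, since the steady-state group held a single read (log2 fold change 11.20, SE 0.81, edgeR adjusted p = 5.45e-05). FRC over steady-state RPF gave a ratio of 2233 with an interval from 400.3 to 88265, that is, steady-state RPF was lower (log2 fold change -10.60, SE 0.80, edgeR adjusted p = 1.96e-05). Fitted fold changes against so few counts depend on the prior count: without steady-state RPF replicate 2, which held the read, they were 12.88 and -12.27 and both calls were made. Depleted RPF averaged 26.0 ± 3.69 CPM and FRC 17.1 ± 8.29 CPM, a difference that did not pass the test (log2 fold change 0.60, SE 0.47, edgeR adjusted p = 0.356). A processed pseudogene, Gm48124, overlaps Aldh1a2 on the other strand, and no source used here gives the strand setting of the counting.

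Mesothelial and dendritic cells are other known sources of Aldh1a2, and their markers were read beside it. The 9 mesothelial markers in the table summed to between 1.35 and 7.29 CPM in depleted RPF, between 10.3 and 29.0 CPM in steady-state RPF and between 18.7 and 25.3 CPM in FRC. In depleted RPF 5 of the 9 (Msln, Upk1b, Lrrn4, Krt19 and Krt18) were at 0 counts, and the other 4 were not. Gpm6a stood at 5.11, 1.21 and 3.61 CPM there, and Upk3b at 2.18 CPM in replicate 1 alone. Muc16 had 5 counts and Krt8 had 1. Msln was seen in steady-state RPF replicate 1 alone, at 6.62 CPM. The 10 dendritic cell markers summed to between 209 and 258 CPM in depleted RPF, between 204 and 331 CPM in steady-state RPF and between 463 and 819 CPM in FRC, most of it from Cd74, H2-Ab1 and Zbtb46. In depleted RPF 4 of the 10 (Itgae, Clec9a, Flt3 and Cd209a) were at 0 counts, but Xcr1, a receptor of cross-presenting dendritic cells, was not. Xcr1 stood at 0.373, 1.35 and 2.16 CPM in depleted RPF, at 0.383, 0 and 0.562 CPM in steady-state RPF and at 0.0304 CPM or less in FRC. Itgax, which encodes CD11c, had 85 counts in depleted RPF, 74 in steady-state RPF and 1 in FRC. In CPM it stood at 0.0287, 0 and 1.87 in depleted RPF and at 1.55, 0 and 0.0331 in steady-state RPF. Nearly all of its counts in each RPF group thus came from 1 library. None of the 6 tested dendritic cell markers was called between depleted and steady-state RPF, where 21.0% of all tested genes were called. With so few markers this says little about dendritic cells. The part of mesothelial and dendritic cells in the level of Aldh1a2 was not tested. Among red pulp macrophage markers 11 were tested, of which 8 were lower and 1, Hmox1, higher in depleted than in steady-state RPF. Over all tested genes, 9.96% were lower and 11.1% higher. Cd5l, C1qa, Adgre1 and Fcgr1 were at 0 counts in depleted RPF.

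The promoter windows of Aldh1a2 and Crabp1 are shown because these were the members that differed between depleted and steady-state RPF, in opposite directions. RefSeq windows of build GRCm38.p6 (mm10) were available for 5 of the 8 genes, 7 windows in all, each running from 250 bases before to 50 bases after a transcription start. Both windows lie on the + strand, at chr9:71215539-71215838 for Aldh1a2 and at chr9:54764498-54764797 for Crabp1, and are printed 5′ to 3′ with motif matches in capitals.
Aldh1a2: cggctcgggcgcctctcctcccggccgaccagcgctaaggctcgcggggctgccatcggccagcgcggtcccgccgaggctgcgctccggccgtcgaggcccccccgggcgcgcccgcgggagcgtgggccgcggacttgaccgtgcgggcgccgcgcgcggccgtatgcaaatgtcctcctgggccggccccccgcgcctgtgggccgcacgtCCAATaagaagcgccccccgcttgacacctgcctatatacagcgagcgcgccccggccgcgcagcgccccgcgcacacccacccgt
Crabp1: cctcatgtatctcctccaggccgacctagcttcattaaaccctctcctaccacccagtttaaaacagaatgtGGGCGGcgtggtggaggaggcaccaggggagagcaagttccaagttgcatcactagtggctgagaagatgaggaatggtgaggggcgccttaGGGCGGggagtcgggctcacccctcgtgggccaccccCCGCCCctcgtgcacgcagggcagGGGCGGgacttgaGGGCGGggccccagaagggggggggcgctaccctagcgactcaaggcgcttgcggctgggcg
Both strands of each window were searched for 6 motifs. They were the TATA element, spelled TATAAA, and the promoter element CCAAT. With them went the element of Sp1-type factors, spelled GGGCGG. The hexamer that retinoic acid receptors bind was spelled AGGTCA. The element of AP-1 was spelled TGANTCA, and that of NF-kB was searched by its usual consensus. None of these overlapped another match in either window. The Aldh1a2 window held 50 CG dinucleotides at a GC content of 78.0%, and 0.855% of 32851 promoter windows held as many. Its only match was CCAAT, at -36 to -32 counted from the start base as 0, a motif found in 37.4% of all windows. The Crabp1 window held 17 CG dinucleotides, a number reached by 31.4% of all windows, and 5 matches of GGGCGG, a motif with at least 1 match in 35.7% of all windows. The receptor hexamer and the AP-1 and NF-kB letters, present in 16.3%, 7.81% and 8.46% of all windows, were not in either window.

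Aldh1a1 (ENSMUSG00000053279, mm10 chromosome 19, 20492715 to 20643462, + strand) stood at 7.90, 9.69 and 3.17 CPM in depleted RPF, at 3.47, 13.7 and 9.26 CPM in steady-state RPF and at 89.1, 143.5 and 109.9 CPM in FRC. The RPF groups overlapped each other and lay far below FRC. Means were 6.92 ± 3.37 CPM in depleted RPF, 8.82 ± 5.14 CPM in steady-state RPF and 114 ± 27.4 CPM in FRC. Steady-state RPF were 13.0-fold lower than FRC (log2 fold change -3.69, SE 0.57, edgeR adjusted p = 0.00149) and depleted RPF 16.5-fold lower (log2 fold change -4.05, SE 0.58, edgeR adjusted p = 0.000725). The difference between depleted and steady-state RPF did not pass the test (log2 fold change -0.35, SE 0.52, edgeR adjusted p = 0.707), and it changed sign to 0.12 without steady-state RPF replicate 2. Aldh1a1 has a close paralog, Aldh1a7, and no label or header states how reads matching both were counted, so its level is uncertain to that extent. Aldh1a7 stood at 0.0287, 0 and 0.0223 CPM in depleted RPF, at 2.83, 0 and 1.46 CPM in steady-state RPF and at 0 in the FRC libraries. The non-coding genes C730002L08Rik and Gm6684 overlap Aldh1a1 on the other strand.

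Aldh1a3 (ENSMUSG00000015134, mm10 chromosome 7, 66390890 to 66427517, - strand) stood at 42.9, 60.5 and 35.9 CPM in depleted RPF, at 44.0, 92.9 and 67.8 CPM in steady-state RPF and at 25.0, 41.8 and 35.8 CPM in FRC. The steady-state RPF libraries lay just above the FRC libraries, with 44.0 CPM as their lowest and 41.8 CPM as the highest of FRC, and the depleted libraries overlapped both groups. Steady-state RPF averaged 68.3 ± 24.5 CPM and FRC 34.2 ± 8.55 CPM, and this difference did not pass the test by a small margin (log2 fold change 1.00, SE 0.32, edgeR adjusted p = 0.0510). It was called under 7 of 16 alternative settings, with adjusted p between 0.0129 and 0.178, and reached 0.0267 without steady-state RPF replicate 1. Depleted RPF averaged 46.4 ± 12.6 CPM, a level that did not pass the test against steady-state RPF (log2 fold change -0.56, SE 0.32, edgeR adjusted p = 0.275) or against FRC (log2 fold change 0.44, SE 0.32, edgeR adjusted p = 0.325).

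To set the 3 enzymes against each other, levels were divided by transcript length, first by the median transcript length in the deposited table. The summed level of the 3 mRNAs was 62.3 ± 13.7 CPM per kilobase in depleted RPF, 73.3 ± 28.3 CPM per kilobase in steady-state RPF and 159 ± 32.8 CPM per kilobase in FRC. Depleted and steady-state RPF overlapped in this sum, between 50.4 and 77.3 and between 44.9 and 101.5 CPM per kilobase, and both lay below the FRC libraries, which ran from 127.6 to 193.2. Aldh1a3 gave 69.4% ± 3.43 of the sum in depleted RPF, 88.2% ± 3.27 in steady-state RPF and 20.0% ± 1.56 in FRC. Aldh1a1 gave 11.2% ± 4.05 in depleted RPF, 11.8% ± 3.26 in steady-state RPF and 74.8% ± 2.62 in FRC. Aldh1a2 gave 19.3% ± 6.60 in depleted RPF, 0.00286% ± 0.00496 in steady-state RPF and 5.21% ± 3.33 in FRC.

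The shares depended on the length used, because the deposited median lengths of Aldh1a1 (955 bases) and Aldh1a3 (1066 bases) are far below those of their longest coding transcripts in GENCODE vM21 (2358 and 3443 bases), while for Aldh1a2 both are 2264 bases. With the longest coding transcript, Aldh1a2 gave 42.0% ± 10.4 of the sum in depleted RPF, 0.00886% ± 0.0153 in steady-state RPF and 12.2% ± 7.37 in FRC. Aldh1a3 then gave 47.8% ± 6.58 in depleted RPF, 85.1% ± 4.00 in steady-state RPF and 14.9% ± 1.70 in FRC. Under both lengths Aldh1a3 had the largest mean share in both RPF groups and Aldh1a1 the largest in FRC. Under the longest transcript, Aldh1a2 exceeded Aldh1a3 in at least 1 depleted library, its highest share being 53.1% against a lowest Aldh1a3 share of 41.5%.

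**Figure D2:**
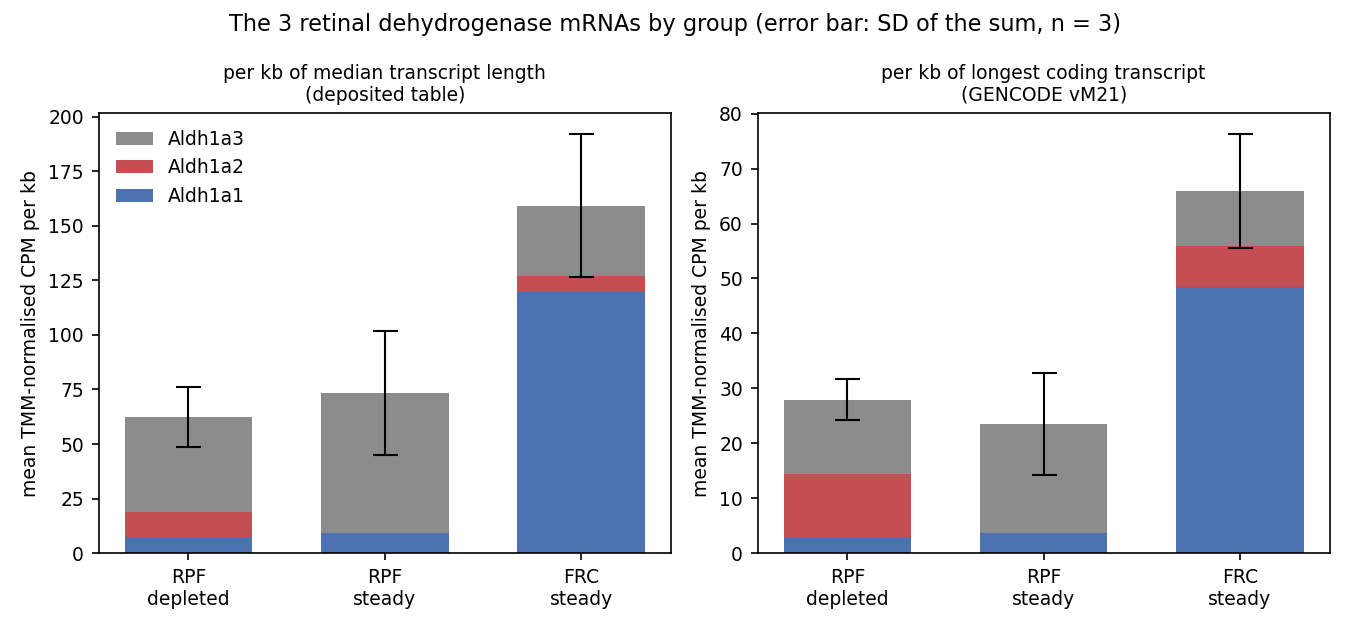
Mean TMM-normalised CPM per kilobase of Aldh1a1, Aldh1a2 and Aldh1a3, stacked per group, with the deposited median transcript length on the left and the longest coding transcript on the right; the error bar is the SD of the sum (n = 3). Aldh1a3 makes up most of the bar in steady-state RPF (88.2% and 85.1%) and Aldh1a1 most of it in FRC (74.8% and 72.8%), while Aldh1a2 is visible in the bars of depleted RPF and FRC.

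Of the carriers, Rbp4 was found in FRC, Crabp1 mostly in steady-state RPF and Crabp2 nowhere. Rbp4 (ENSMUSG00000024990, mm10 chromosome 19, 38116620 to 38125321, - strand), the blood carrier of retinol, had 0 counts in all 3 depleted RPF libraries. It had 1, 48 and 0 counts in steady-state RPF, so 48 of 49 counts came from replicate 2, and 2296 counts in FRC, at 25.0, 18.2 and 28.0 CPM. Depleted RPF were at least 932-fold lower than FRC, with 3 counts in the whole group taken as the floor (edgeR adjusted p = 0.00592). Steady-state RPF were 73.5-fold lower than FRC on the means (edgeR adjusted p = 0.0313). That call was lost on leaving out any of 5 of the 6 libraries, with adjusted p from 0.0545 to 0.0735, and without steady-state RPF replicate 2 the log2 fold change was -10.54 instead of -6.15, with an adjusted p of 0.00116. Without both libraries low in Y-linked reads the adjusted p was 0.128. Depleted against steady-state RPF did not pass the test for Rbp4 (edgeR adjusted p = 0.0926; DESeq2 adjusted p = 0.0038), and rested on that same replicate 2.

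Rbp4 is made by adipocytes as well as by liver, and lymph nodes lie in fat, so adipocyte and mural markers were read beside it. The 3 adipocyte markers in the table summed to between 2.73 and 7.34 CPM in depleted RPF, between 0.298 and 0.869 CPM in steady-state RPF and between 12.4 and 34.5 CPM in FRC. Plin1, which coats lipid droplets, lay between 10.0 and 33.8 CPM in FRC, and at 0.357 CPM or less in the RPF libraries. Fabp4, a fatty acid binding protein, averaged 5.58 ± 2.51 CPM in depleted RPF, 0.549 ± 0.293 CPM in steady-state RPF and 3.77 ± 3.92 CPM in FRC. Adipoq had counts in FRC replicate 2 alone, at 1.09 CPM. Of Plin1 and Fabp4, the adipocyte markers tested, Plin1 was called, lower in either RPF group than in FRC. Over all tested genes, 14.4% were lower than FRC in steady-state RPF and 18.8% in depleted RPF. Mural cell markers summed to between 149 and 289 CPM in depleted RPF, between 111 and 152 CPM in steady-state RPF and between 520 and 597 CPM in FRC, where the pericyte gene Rgs5 stood between 269 and 374 CPM. Of the 4 mural markers, Rgs5 and Cspg4 were called lower in either RPF group than in FRC, and Myh11 and Notch3 were not called against FRC. Between depleted and steady-state RPF, 1 of the 4 was called, higher in depleted RPF, where 11.1% of all tested genes were higher. Notch3 averaged 192 ± 53.9 CPM in depleted RPF, 105 ± 12.8 CPM in steady-state RPF and 142 ± 19.3 CPM in FRC. The part of these cells in the FRC levels of Rbp4 was not tested.

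Crabp1 (ENSMUSG00000032291, mm10 chromosome 9, 54764748 to 54773110, + strand) stood at 2.33, 3.35 and 3.10 CPM in depleted RPF, at 31.6, 26.4 and 21.5 CPM in steady-state RPF and at 3.13, 11.2 and 4.12 CPM in FRC. All 3 steady-state RPF libraries lay above all others, and the depleted RPF and FRC libraries overlapped. Means were 2.92 ± 0.533 CPM in depleted RPF, 26.5 ± 5.07 CPM in steady-state RPF and 6.14 ± 4.40 CPM in FRC. Crabp1 fell 9.07-fold in depleted against steady-state RPF (log2 fold change -3.18, SE 0.53, edgeR adjusted p = 0.00294), and this call was made on leaving out each library in turn, with adjusted p from 0.00888 to 0.0158. It was 4.32-fold higher in steady-state RPF than in FRC (log2 fold change 2.11, SE 0.51, edgeR adjusted p = 0.0151). This second call was lost without steady-state RPF replicate 1 (adjusted p = 0.0588) and without both libraries low in Y-linked reads (adjusted p = 0.108), and its log2 fold change was 2.87 without FRC replicate 2. Depleted RPF did not pass the test against FRC (log2 fold change -1.07, SE 0.50, edgeR adjusted p = 0.126). Crabp2 (ENSMUSG00000004885, mm10 chromosome 3, 87948666 to 87953376, + strand) had 0 counts in all 9 libraries.

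Cyp26b1 (ENSMUSG00000063415, mm10 chromosome 6, 84571414 to 84593908, - strand), whose product breaks retinoic acid down, was low in every group, at 2.13, 2.05 and 0.736 CPM in depleted RPF, at 6.11, 2.05 and 3.34 CPM in steady-state RPF and at 11.5, 11.5 and 10.9 CPM in FRC. The FRC libraries lay close together and above all RPF libraries, and depleted and steady-state RPF overlapped. Means were 1.64 ± 0.781 CPM in depleted RPF, 3.83 ± 2.07 CPM in steady-state RPF and 11.3 ± 0.356 CPM in FRC. Depleted RPF were 6.90-fold lower than FRC (log2 fold change -2.79, SE 0.64, edgeR adjusted p = 0.00912). Steady-state RPF did not pass the test against FRC (log2 fold change -1.56, SE 0.62, edgeR adjusted p = 0.0980), although DESeq2 and limma-voom gave adjusted p of 0.0350 and 0.0210. Depleted against steady-state RPF did not pass either (log2 fold change -1.23, SE 0.61, edgeR adjusted p = 0.203).

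Counted over the 7 tested genes, depleted against steady-state RPF had 1 gene higher, Aldh1a2, and 1 lower, Crabp1, where 21.0% of all 15103 tested genes were called, 11.1% higher and 9.96% lower. Libraries of the groups did not overlap for Aldh1a2, Crabp1 and Rdh10, and did not overlap for 44.4% of all tested genes. Steady-state RPF against FRC had 2 genes higher, Rdh10 and Crabp1, and 3 lower, Aldh1a1, Aldh1a2 and Rbp4, where 25.9% of all tested genes were called, 11.5% higher and 14.4% lower. Here the libraries did not overlap for all 7, a pattern held by 44.6% of all tested genes. Depleted RPF against FRC had 1 gene higher, Rdh10, and 3 lower, Aldh1a1, Rbp4 and Cyp26b1, where 35.8% of all tested genes were called, 16.9% higher and 18.8% lower. Those 4 were also the genes whose libraries did not overlap, as was so for 50.3% of all tested genes. The median log2 fold change of the 7 genes was -0.56, -1.56 and -1.07 in these comparisons in turn, beside -0.09, -0.02 and -0.06 over all tested genes. The comparisons share libraries, so that the steady-state RPF libraries enter both the rise of Aldh1a2 with depletion and its low level against FRC.

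**Figure D3:**
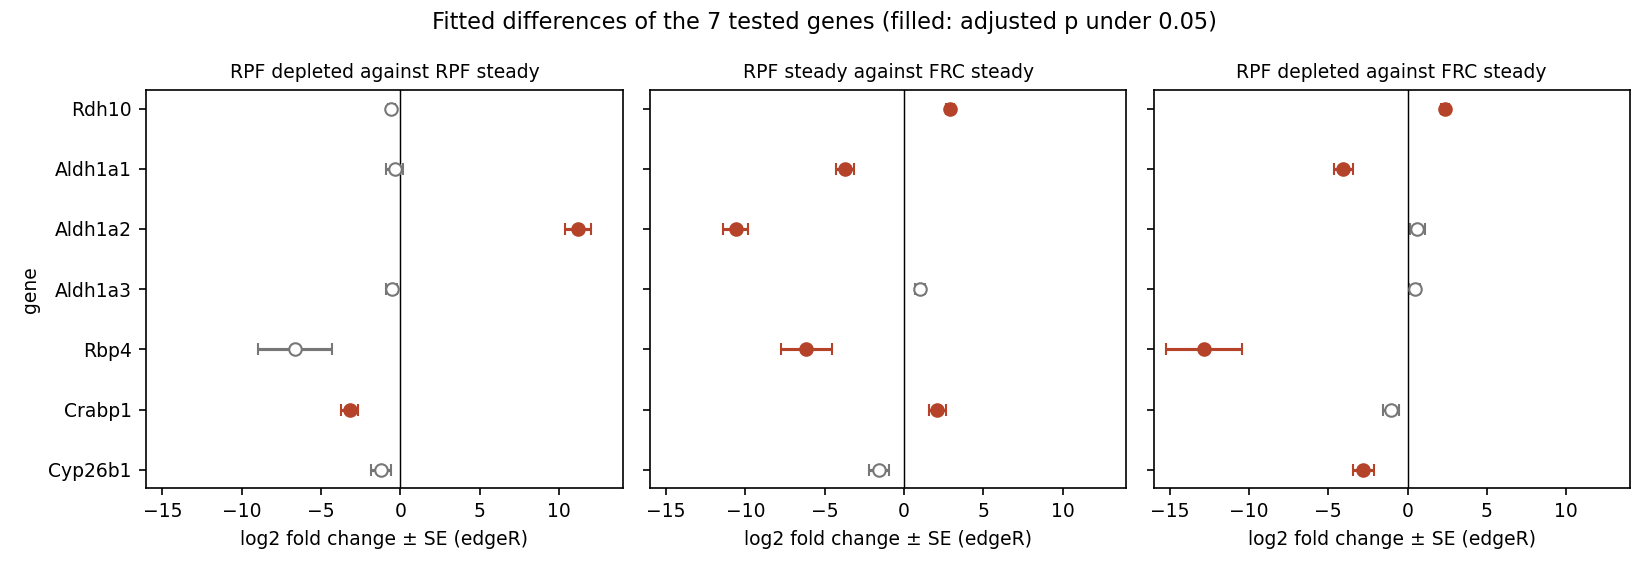
Fitted log2 fold change ± SE from edgeR for the 7 tested genes in each comparison, filled where the adjusted p is under 0.05; a positive value means higher in the group named first in the panel title. Aldh1a2 at 11.20 and Crabp1 at -3.18 are the filled points of depleted against steady-state RPF, and the values of Aldh1a2 and Rbp4 against groups with few or no counts depend on the prior count.

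The other genes of the pathway were read in 6 lists, some of which share genes. Their counts stand beside 11.1% of all tested genes called higher and 9.96% lower in depleted against steady-state RPF, 11.5% and 14.4% in steady-state RPF against FRC, and 16.9% and 18.8% in depleted RPF against FRC, and in lists this short a count near these shares says nothing particular about the list. Of the other retinol and retinal oxidoreductases, 11 of 20 were tested, and 0 rose and 3 fell in depleted against steady-state RPF, with a median log2 fold change of -0.81. The 3 were Dhrs3, Dhrs7 and Rdh14, and Rdh14 lost its call on leaving out any of the 6 libraries (adjusted p from 0.0694 to 0.115). In steady-state RPF against FRC 2 were higher and 2 lower, and in depleted RPF against FRC 0 were higher and 3 lower. Adh1, an alcohol dehydrogenase that also oxidises retinol, stood at 0.144, 0.189 and 0.0669 CPM in depleted RPF, at 0.192, 1.30 and 0.165 CPM in steady-state RPF and at 850, 1178 and 1107 CPM in FRC. It was lower than FRC in depleted RPF (log2 fold change -12.94, edgeR adjusted p = 7.72e-06) and in steady-state RPF (log2 fold change -10.79, edgeR adjusted p = 1.32e-05; -12.47 without steady-state RPF replicate 2). Per kilobase of the deposited median transcript length, Rdh10 had 476.6 CPM in steady-state RPF and 63.2 CPM in FRC, where Adh1 had 1093 CPM. These lengths were 2773 bases for Rdh10 and 956 bases for Adh1, and levels of Adh1 per longest coding transcript are not given here. Dhrs3, which turns retinal back into retinol, averaged 48.2 ± 7.51 CPM in depleted RPF, 124 ± 22.7 CPM in steady-state RPF and 54.1 ± 21.4 CPM in FRC. It fell with depletion (log2 fold change -1.36, edgeR adjusted p = 0.0107; 0.0603 without both libraries low in Y-linked reads). It was higher in steady-state RPF than in FRC (log2 fold change 1.19, edgeR adjusted p = 0.0159), a call lost without steady-state RPF replicate 1 (adjusted p = 0.0588) and without both libraries low in Y-linked reads (adjusted p = 0.119). Dhrs7, a related dehydrogenase, averaged 21.3 ± 6.51 CPM in depleted RPF, 58.5 ± 6.01 CPM in steady-state RPF and 149 ± 11.2 CPM in FRC, and each step passed the edgeR test (adjusted p = 0.00151 between the RPF groups and 0.0017 between steady-state RPF and FRC).

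Of the uptake, carriage and binding genes, 5 of 12 were tested, and 0 rose and 1, Lrp1, fell in depleted against steady-state RPF (median log2 fold change -0.30), while 1 was higher and 3 lower in steady-state RPF against FRC (median -1.10). Cd36, a scavenger receptor that takes up lipids, stood at 1103, 1165 and 1024 CPM in depleted RPF, at 1010, 1075 and 732 CPM in steady-state RPF and at 3.43, 0.785 and 4.15 CPM in FRC (log2 fold change 8.39 for steady-state RPF against FRC, edgeR adjusted p = 1.11e-05). Lpl, the lipase that releases lipids and retinyl esters from lipoproteins, averaged 4.54 ± 3.60 CPM in depleted RPF, 6.61 ± 0.589 CPM in steady-state RPF and 1511 ± 135 CPM in FRC (log2 fold change -7.84 for steady-state RPF against FRC, edgeR adjusted p = 4.22e-05). Lrp1, a receptor for lipoprotein remnants, averaged 1459 ± 265 CPM in depleted RPF, 2678 ± 609 CPM in steady-state RPF and 6450 ± 940 CPM in FRC, and fell with depletion by 0.88 on the log2 scale (edgeR adjusted p = 0.0123). Scarb1, a receptor for lipoproteins that also takes up carotenoids, averaged 40.8 ± 7.37 CPM in depleted RPF, 34.98 ± 6.17 CPM in steady-state RPF and 74.8 ± 14.4 CPM in FRC, and was lower in steady-state RPF than in FRC (log2 fold change -1.10, edgeR adjusted p = 0.00686). The summed levels of adipocyte and of mural markers were higher in FRC, though not those of every marker, as given above for Rbp4, and their part in the FRC levels of Adh1 and Lpl was not tested.

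**Figure D4:**
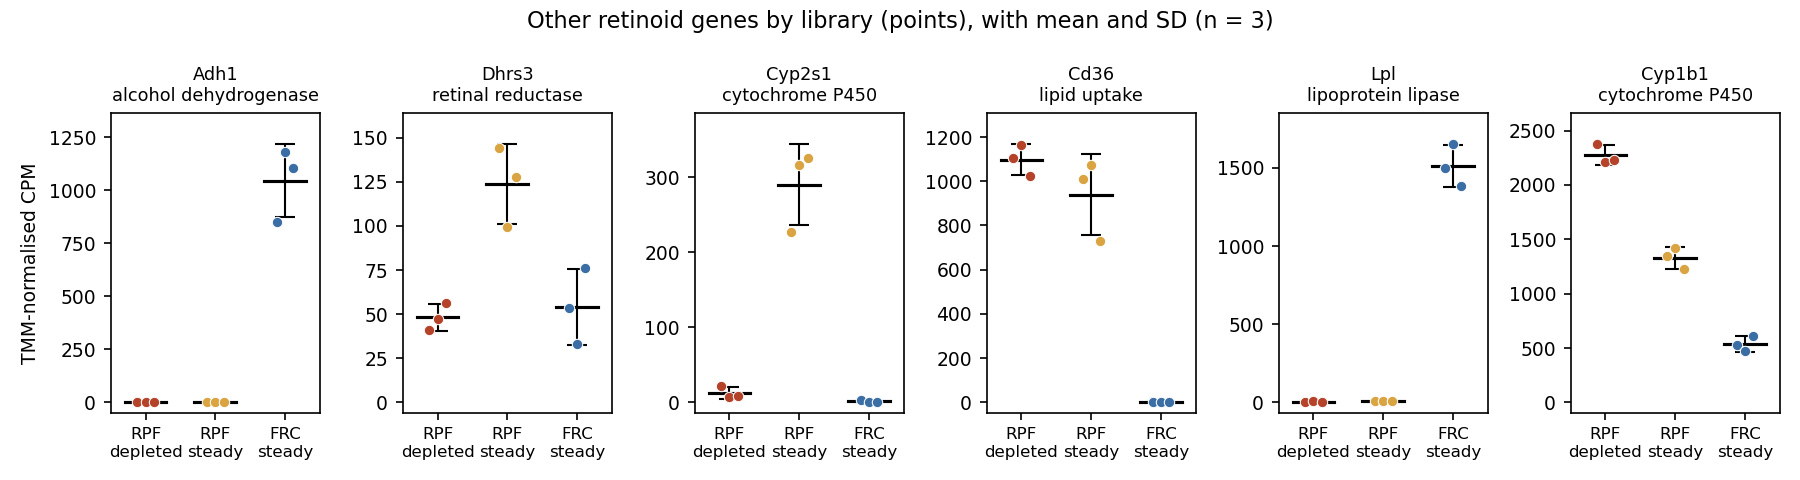
Level of 6 other retinoid genes in every library, in TMM-normalised CPM on linear axes that differ between panels; points are libraries, the thick line is the mean and the bars the SD (n = 3). Cyp2s1 lies between 7.42 and 21.7 CPM in depleted RPF, between 227 and 326 CPM in steady-state RPF and at 3.34 CPM or less in FRC, while Adh1 and Lpl are seen in FRC and Cd36 in both RPF groups.

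Storage and carotenoid genes had 6 of 9 tested, with 0 higher and 1 lower in depleted against steady-state RPF, 0 called in steady-state RPF against FRC and 3 lower in depleted RPF against FRC. Of those 3 (Dgat1, Lipe and Ces1d), Dgat1 and Lipe were not called without both libraries low in Y-linked reads (adjusted p = 0.120 and 0.0852 with edgeR). Dgat1, which makes triglycerides and can esterify retinol, averaged 10.4 ± 3.61 CPM in depleted RPF, 28.1 ± 1.57 CPM in steady-state RPF and 22.6 ± 5.63 CPM in FRC, and fell with depletion (log2 fold change -1.43, edgeR adjusted p = 0.0135). Of the 4 genes of the degradation list, Cyp2s1 and Cyp1b1 were tested. The others, Cyp26a1 and Cyp26c1, were not found by symbol among the deposited counts. The list name is a label only: no breakdown of retinoic acid was measured, and a change in Cyp1b1 is not to be read as one in breakdown. Cyp2s1, a cytochrome P450 that can oxidise retinoic acid, stood at 21.7, 7.42 and 8.66 CPM in depleted RPF, at 227, 316 and 326 CPM in steady-state RPF and at 3.34, 0.0341 and 0.507 CPM in FRC. It fell 23.0-fold in depleted against steady-state RPF (log2 fold change -4.53, edgeR adjusted p = 0.00841; -5.17 without depleted replicate 1). It was higher in steady-state RPF than in FRC (log2 fold change 7.79, edgeR adjusted p = 0.000854; 9.99 without FRC replicate 1). Cyp1b1, another P450 with retinoids among its substrates, rose with depletion to 2274 ± 89.9 CPM, against 1328 ± 97.6 CPM in steady-state RPF (log2 fold change 0.78, edgeR adjusted p = 0.00172), and FRC averaged 538 ± 73.0 CPM.

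Of the retinoic acid receptors, RAR and RXR alike, 1 was called in any comparison. Rara averaged 190 ± 13.8 CPM in depleted RPF, 210 ± 49.4 CPM in steady-state RPF and 155 ± 52.4 CPM in FRC, and Rxra averaged 140 ± 29.1 CPM in depleted RPF, 182 ± 17.5 CPM in steady-state RPF and 155 ± 34.3 CPM in FRC. Rarg averaged 30.0 ± 8.76 CPM in depleted RPF, 27.4 ± 3.25 CPM in steady-state RPF and 41.0 ± 7.88 CPM in FRC. Rarb, itself a classical target of retinoic acid, averaged 0.871 ± 1.25 CPM in depleted RPF, 1.81 ± 0.279 CPM in steady-state RPF and 1.53 ± 1.37 CPM in FRC. None of Rara, Rarb, Rarg, Rxra and Rxrb was called between the RPF groups or between steady-state RPF and FRC, and Rxrb was called lower in depleted RPF than in FRC (26.8 ± 4.97 and 49.2 ± 8.77 CPM, log2 fold change -0.88, edgeR adjusted p = 0.0154). A p above the threshold does not show that levels were equal; the log2 fold change of Rara between depleted and steady-state RPF was -0.14 with an SE of 0.26, and that of Rarb -1.05 with an SE of 1.91. Of all 15 tested receptors and co-regulators, 0 rose and 4 fell with depletion, and 1 was higher and 3 lower in steady-state RPF than in FRC, where 21.0% and 25.9% of all tested genes were called in these comparisons. The 4 that fell were Nr2f1, Nr2f2, Nrip1 and Ncoa3, and each of these calls was lost on leaving out at least 4 of 6 single libraries, with adjusted p up to 0.163. Of the 3 that were lower in steady-state RPF than in FRC, Ncoa1 and Ncoa3 each lost the call on leaving out 4 of 6 single libraries, with adjusted p up to 0.108 and 0.161. Nr2f1, an orphan nuclear receptor, averaged 0.296 ± 0.193 CPM in depleted RPF, 1.39 ± 0.739 CPM in steady-state RPF and 24.5 ± 7.61 CPM in FRC. Its relative Nr2f2 averaged 147 ± 3.36 CPM in depleted RPF, 188 ± 12.1 CPM in steady-state RPF and 80.2 ± 4.18 CPM in FRC. Between steady-state RPF and FRC the pair differed in opposite directions (log2 fold changes of -4.14 for Nr2f1 and 1.23 for Nr2f2, edgeR adjusted p = 0.00146 and 4.05e-05).

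Genes known from other cells to respond to retinoic acid moved in both directions. Of 16 tested, 3 rose and 6 fell in depleted against steady-state RPF, where 11.1% of all tested genes were higher and 9.96% lower, the median log2 fold change being -0.56, and 3 were higher and 3 lower in steady-state RPF than in FRC. Dhrs3 and Cyp1b1, described above, are among them. Rarres2, which encodes the chemoattractant chemerin, fell with depletion and stood at 88.3 ± 21.0 CPM in depleted RPF, 230.4 ± 8.80 CPM in steady-state RPF and 420 ± 6.11 CPM in FRC (log2 fold change -1.38 between the RPF groups, edgeR adjusted p = 0.000567). Tgm2, a transglutaminase that cross-links proteins, rose to 502 ± 84.4 CPM in depleted RPF, against 173 ± 25.0 CPM in steady-state RPF (log2 fold change 1.53, edgeR adjusted p = 0.000617), and FRC averaged 308 ± 58.7 CPM. Lox, which cross-links collagen, averaged 94.2 ± 54.6 CPM in depleted RPF, 9.56 ± 4.81 CPM in steady-state RPF and 72.1 ± 17.8 CPM in FRC, and was called between steady-state RPF and FRC (log2 fold change -2.91, edgeR adjusted p = 0.00267) and between the RPF groups (log2 fold change 3.30, edgeR adjusted p = 0.00195). Meis1, a homeobox transcription factor, averaged 53.7 ± 17.2 CPM in depleted RPF, 101 ± 20.0 CPM in steady-state RPF and 40.5 ± 5.68 CPM in FRC, and was higher in steady-state RPF than in FRC (log2 fold change 1.32, edgeR adjusted p = 0.00514). Lox and Tgm2 were lowest on average in steady-state RPF, while Dhrs3 and Meis1 were highest there. Whether any of these genes followed the retinal dehydrogenases was not tested.

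**Figure D5:**
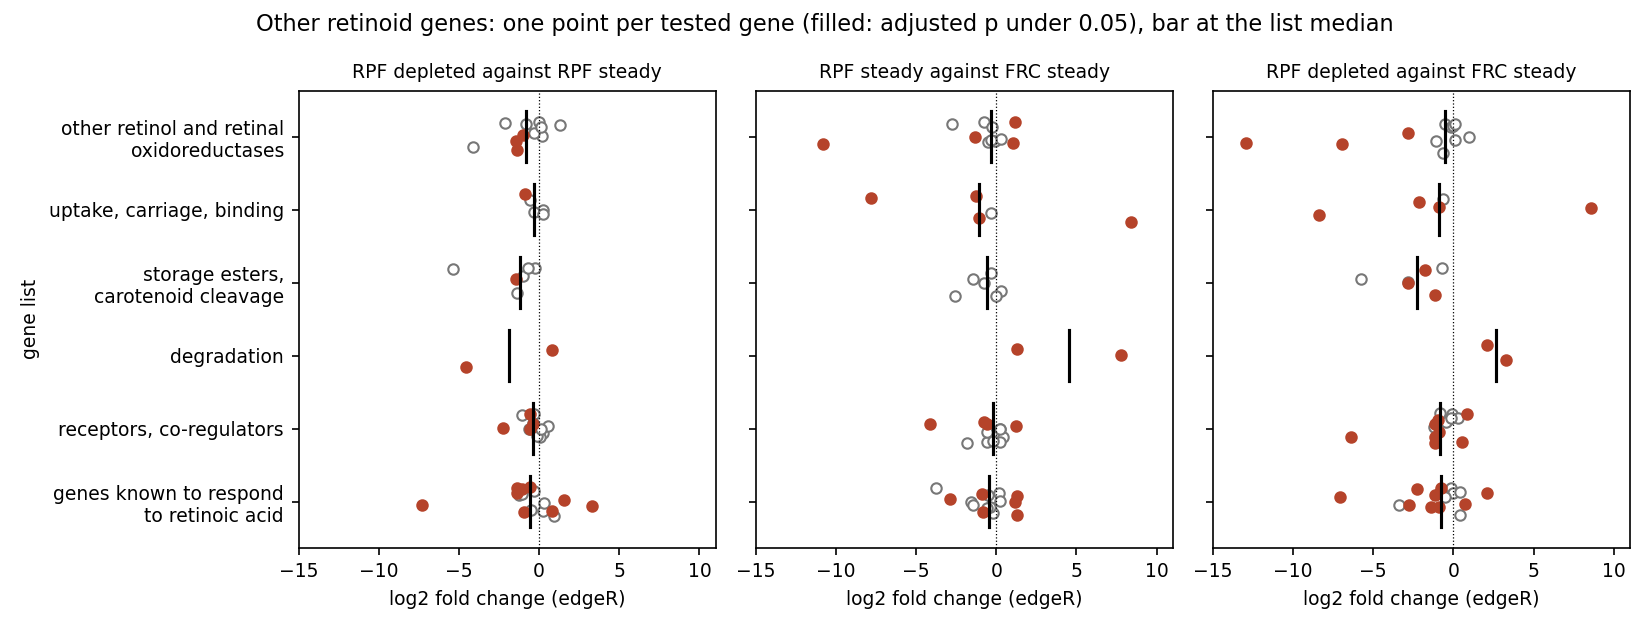
Fitted log2 fold change of every tested gene of the 6 lists of other retinoid genes, 1 point per gene, filled where the edgeR adjusted p is under 0.05, with a bar at the median of each list; a positive value means higher in the group named first in the panel title. In depleted against steady-state RPF the list medians run from -1.88 to -0.30, beside -0.09 over all tested genes; the lists share genes, and the lowest is the midpoint of Cyp2s1 (-4.53) and Cyp1b1 (0.78), called in opposite directions.

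The genes whose pattern across the 9 libraries was most like that of a member were found by Pearson's r of log2(CPM + 0.5) over 13647 genes. This is a description with no test, since the points share groups and libraries. Pearson's r compares the pattern and takes no account of the level or the size of the differences. For Aldh1a2 the genes most alike in pattern were Rpl4 (r = 0.987), Tnip1 (r = 0.985) and Metrnl (r = 0.984). Tnip1, which restrains NF-kB signalling, averaged 206 CPM in depleted RPF, 36.9 CPM in steady-state RPF and 172 CPM in FRC, and Rpl4, a ribosomal protein gene, 795 CPM in depleted RPF, 254 CPM in steady-state RPF and 669 CPM in FRC. For Rdh10 they were Otud7a (r = 0.996), Arxes2 (r = 0.994) and Gmnn (r = 0.991), and for Aldh1a1 they were Pld3 (r = 0.988), Tenm3 (r = 0.986) and Bace2 (r = 0.984). For Cyp26b1 they were Galns (r = 0.981), Trps1 (r = 0.980) and Scd1 (r = 0.971). For Aldh1a3 the likeness was lower, with B3galt4 (r = 0.967), Zfp157 (r = 0.930) and Oma1 (r = 0.896).

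FRC replicate 2 stood apart from the other FRC libraries in several retinoid genes, which were chosen for mention after their values were seen. Aldh1a2 was lowest there, at 8.26 CPM against 24.7 and 18.4 CPM in replicates 1 and 3. Stra6, the cell surface receptor for RBP4, stood at 13.9, 0.0682 and 6.14 CPM in FRC, and at 0.0287 CPM or less in every RPF library. Lrat, which esterifies retinol for storage, stood at 2.94, 0 and 6.00 CPM in FRC, and at 0 in all RPF libraries. Rxrg, a retinoid X receptor, stood at 4.10, 0.102 and 5.40 CPM in FRC, and had 0 counts in depleted RPF and 1 count in steady-state RPF. Stra6, Lrat and Rxrg did not have enough counts across libraries to be tested.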

How the data were processed

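PolyA RNA of 9 libraries in 3 groups was analysed, with groups taken from the sample labels and replicates numbered in accession order. The authors deposited raw read counts per gene, which were used as they are; the submitters' processing notes name HTSeq 0.6.1p1, STAR 2.5.3a, Bowtie2 2.2.8 and cutadapt 1.10, and the build mm10. No source used here gives the annotation release or the strand setting. Beside the counts, the deposited table holds a median transcript length per gene, in bases, used for levels per kilobase, and 24 further per-sample columns that were not used.

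Counts were fitted in R 4.3.3 with edgeR 4.0.16 (TMM scaling, filterByExpr, 1 term per group, robust quasi-likelihood fit, two-sided), and p-values were Benjamini-Hochberg adjusted over all 15103 tested genes and called under 0.05. As 12 mice were used, 6 of them treated, FRC and steady-state RPF may come from the same 6 untreated mice; the test treats libraries as independent, and p-values measure the spread between pools of 2 mice. Total counts of 25414645 to 43879806 per library set the depth. With 0 counts in a group, folds are bounds against 3 counts over the group; with 1 to 3 counts, the ratio has a 95% exact counting interval. The script was tested on simulated data. Alternatives used DESeq2 1.42.0, limma-voom (limma 3.58.1), RLE, upper quartile and library total scaling, other filters, no robust prior, a test against a 1.5-fold change, the compared groups alone and each library left out; the longest coding transcript and the removal of both libraries low in Y-linked reads were chosen after seeing the data. The 8 genes, the lists and the markers were chosen with earlier results of these data known. Named from each of the 6 lists were up to 4 called genes per comparison with the smallest p (mean in the higher group 1 CPM or more), all RAR and RXR genes, and the 3 genes most like each of 5 members; not all genes under this rule are given. Stra6 and Lrat fall outside it, and 1 gene of these lists was left out of the lists and is not reported here. Plots used matplotlib 3.10.9 in Python 3.11.15.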

Additional observations from a re-analysis of the deposited data

How the results depend on the processing

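Of the results for the members under each alternative, 313 kept their direction and side of the threshold, 13 passed it only under the alternative, 8 no longer passed and 1 reversed: Aldh1a1 between depleted and steady-state RPF, whose log2 fold change ran from -0.74 to 0.12 on leaving out single libraries, the highest without steady-state RPF replicate 2. For the other named retinoid genes 683 held and 97 no longer passed. Against a 1.5-fold change, 1670 genes were called between depleted and steady-state RPF and 2542 between steady-state RPF and FRC, against 3176 and 3908 in the main analysis. Leaving out single libraries gave 2144 to 2414 calls between the RPF groups, 2838 to 3437 between steady-state RPF and FRC and 4292 to 4912 between depleted RPF and FRC. Upper quartile scaling moved the median log2 fold change of all genes in steady-state RPF against FRC to 0.14, against -0.02 with TMM scaling, and turned the balance of calls: 2158 higher and 1821 lower there, against 1734 and 2174 with TMM scaling, and 1463 higher and 1688 lower between the RPF groups, against 1671 and 1505 (1564 and 1592 with RLE scaling, 1999 and 2310 with DESeq2). Without both libraries low in Y-linked reads, calls not mentioned so far were also lost for Rdh14, Ncoa3, Nr2f1 and Nr2f2 between the RPF groups, for Rdh14, Ncoa1 and Ncoa3 between steady-state RPF and FRC and for Rdh12 between depleted RPF and FRC, with adjusted p from 0.0527 (Rdh12) to 0.258 (Ncoa3). The summed level of the 3 retinal dehydrogenases moved with the length term. With the longest coding transcript it was 27.9, 23.6 and 65.9 CPM per kilobase in depleted RPF, steady-state RPF and FRC. With no length term it was 79.3 CPM in depleted RPF and 77.1 CPM in steady-state RPF. Under both settings the mean was higher in depleted than in steady-state RPF, the reverse of the main 62.3 and 73.3 CPM per kilobase. The TMM scaling factors ran from 0.765 to 0.827 in FRC, from 1.176 to 1.198 in steady-state RPF and from 1.051 to 1.070 in depleted RPF. With library total scaling, which leaves these factors out, the summed level was 65.7 CPM per kilobase in depleted RPF, 87.2 in steady-state RPF and 126 in FRC. The FRC mean then lay nearer to the RPF means than with TMM scaling. Leaving out single libraries gave 54.7 to 68.2 in depleted RPF, 59.1 to 87.4 in steady-state RPF and 142 to 175 in FRC. No paired analysis was possible because the labels give no replicate numbers and do not say which libraries share mice. Counting error limits genes near 0, such as Aldh1a2 and Rbp4 in RPF.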
